A study of Mus musculus with 4 samples.

Results

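The genes described here are the mouse Zfp genes, named for a zinc finger protein and a number, compared between mouse embryonic fibroblasts that lacked Med1 and fibroblasts that kept it. A gene was taken when its symbol was Zfp followed by a digit. The mRNA-decay factors Zfp36, Zfp36l1 and Zfp36l2 were left out. The rule found 170 genes, measured by 248 probe sets, among 12393 genes on the array. The members were chosen by name, but the family was proposed with its Med1-/- against Med1+/+ differences on these arrays already known. Those differences are therefore given as a description, and nothing is supported with them.

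Both genotypes lacked p53. There were 2 arrays of Med1+/+ p53-/- cells and 2 of Med1-/- p53-/- cells. Med1 is the Mediator subunit that many nuclear receptors contact. The fibroblasts were from E10.0 embryos of the C57BL/6J strain, and per the labels a Med1+/- p53-/- father and a Med1+/- p53+/- mother gave both genotypes. The cells were grown in DMEM with fetal calf serum. The Med1 deletion was present in all cells of the embryo, so a difference that arose before culture and one that arose in culture cannot be told apart. The labels give no number of embryos or cultures, so the spread between the arrays of a genotype may be technical, and whatever else differed between the cultures is confounded with genotype. The number of arrays, 4 in all, limits the precision of every value.

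Most Zfp genes encode proteins with tandem C2H2 zinc fingers, each a short fold held by a zinc ion that can read a few bases of DNA. Many carry a KRAB domain as well, which recruits the corepressor Trim28 and through it the histone methyltransferase Setdb1 and heterochromatin proteins. KRAB zinc finger genes lie in clusters that grew by duplication, and many of their products bind and silence retroelements. Other Zfp genes are unrelated in function: the symbol also covers chromatin factors, RNA-binding proteins and factors that assemble or watch over ribosomes. The symbol Zfp353-ps marks a pseudogene and Zfp85os a noncoding RNA, and both are members by name.

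The brightest Med1 probe set read 664.6 and 885.6 in cells with Med1 and 25.4 and 40.2 in cells without it, as deposited. The deposited signal was not on 1 scale: the array medians over all probe sets were 76.25 and 106.65 in Med1+/+ and 36.1 and 51.4 in Med1-/-. Over the Zfp probe sets alone the medians were 55.75, 75.65, 18.9 and 31.15 in the same order. The arrays were therefore quantile normalised, and every level below is a normalised signal unless called deposited. Of 12 fibroblast and mesenchyme markers 11 passed the filter on dim probe sets, and together they summed to 44086 and 41273 in Med1+/+ and to 45976 and 43865 in Med1-/-. Single markers moved in both directions beneath that sum: 5 were higher, among them Col1a1 (log2 change 1.98) and Thy1 (1.34), and 4 were lower, namely Pdgfra (-2.95), Prrx1 (-2.89), S100a4 (-2.68) and Dcn (-1.99). All 5 blood markers and all 4 pluripotency markers were below that filter, and none was at 0. Sums over markers of some other cell types moved with genotype, each resting on few genes. The 4 epithelial markers summed to 3460 and 3589 in Med1+/+ and to 225 and 194 in Med1-/-, the 4 muscle markers to 76.8 and 56.3 and to 621 and 601, and the 4 neural markers to 256 and 247 and to 892 and 920. Krt18 alone read 2493 and 2542 in Med1+/+, and Des alone 496 and 502 in Med1-/-. Tubb3 and Nes were the 2 neural markers that passed the filter, and Epcam, Myod1 and Myog were below it. The 5 endothelial markers summed to 43.1 and 68.0 in Med1+/+ and to 80.7 and 57.4 in Med1-/-, and 4 were below the filter. The part of all these markers in the Zfp differences was not tested. In such bulk RNA, fewer cells of a type and less RNA per cell cannot be told apart.

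Of the 170 Zfp genes, 111 passed the filter, which left out probe sets whose mean log2 signal was under the 40th percentile. That was 65.3% of the family, against 63.5% of all genes. Changes are Med1-/- minus Med1+/+ on the scale of log2(normalised signal + 1.7), from limma with a threshold of 0.05 on p-values adjusted over all 8923 features. By that rule 56 Zfp genes were lower in Med1-/- cells, or 50.5% of those tested, beside 36.2% of all features. Another 31 were higher, or 27.9%, beside 39.1% of all features, and 24 were not called. With at least a 2-fold change required as well, 44 were lower and 21 higher, beside 19.2% and 21.2% of all features. The arrays of the genotypes did not overlap for 102 of the 111 genes, or 91.9%, beside 88.2% of all features. The 9 genes whose arrays overlapped were Zfp54, Zfp87, Zfp112, Zfp275, Zfp346, Zfp354a, Zfp397, Zfp467 and Zfp830.

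The median log2 change of the 111 genes was -0.62, and over all features it was 0.09. Changes ran from -2.66 to 2.71, with quartiles at -1.34 and 0.64. The median absolute change was 1.19, beside 0.84 over all features. The median difference between the arrays of a genotype was 0.15 in Med1+/+ and 0.23 in Med1-/- for Zfp genes, and 0.14 and 0.17 over all features.

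**Figure D1:**
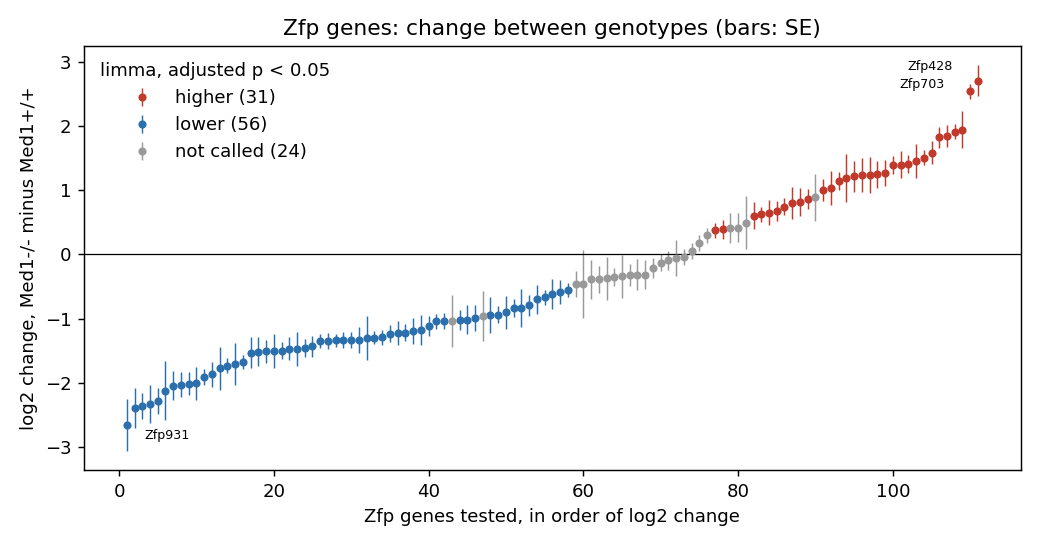
Log2 change of the 111 tested Zfp genes in order (y axis, Med1-/- minus Med1+/+, on the log2(normalised signal + 1.7) scale; bars, SE from limma; 2 arrays per genotype). The 56 genes called lower reach -2.66 at Zfp931 and the 31 called higher reach 2.71 at Zfp428; with values scaled on the Bacillus subtilis controls 2 genes are called higher and 97 lower.

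How many Zfp genes counted as higher depended on how the arrays were scaled. Scalings other than quantile normalisation multiply a whole array by 1 factor, which moves the median of the Zfp genes and that of all features nearly alike, so the gap between them is all but fixed among those scalings. With quantile normalisation the median Zfp change lay 0.71 below that of all features. With array medians set equal it lay 0.91 below, and 32 Zfp genes were higher and 57 lower, while 45.3% of all features were higher and 30.4% lower. With 75th percentiles set equal the counts were 26 and 62, beside 39.4% and 35.1% of all features, and the gap was 0.91. On the deposited values the median of all features was itself -0.76, the gap was 0.88, and 4 Zfp genes were higher and 72 lower, beside 2.97% and 43.1% of all features. Scaled on the hybridisation controls, RNAs added to every array, the median of all features was -0.77, and 10 Zfp genes were higher and 81 lower, beside 13.2% and 59.9%. Scaled on the Bacillus subtilis control RNAs, the median of all features was -1.62, and 2 Zfp genes were higher and 97 lower, beside 1.54% and 87.5%. All 56 genes called lower were called lower under each of these scalings. The deposited and control scalings move all features downward, so a lower call could hardly be lost there. With array medians or 75th percentiles set equal, the median of all features was 0.30 and 0.11. Each of the 56 was also lower without overlap in the deposited values, where the signal as a whole was lower in Med1-/-. The shares of all features so separated in the deposited values were not computed. Of the 31 called higher, 11 were higher without overlap as deposited, 15 overlapped, and 5 (Zfp219, Zfp334, Zfp707, Zfp740 and Zfp821) were lower without overlap. A rise below is thus a rise relative to the other genes of the array.

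**Figure D2:**
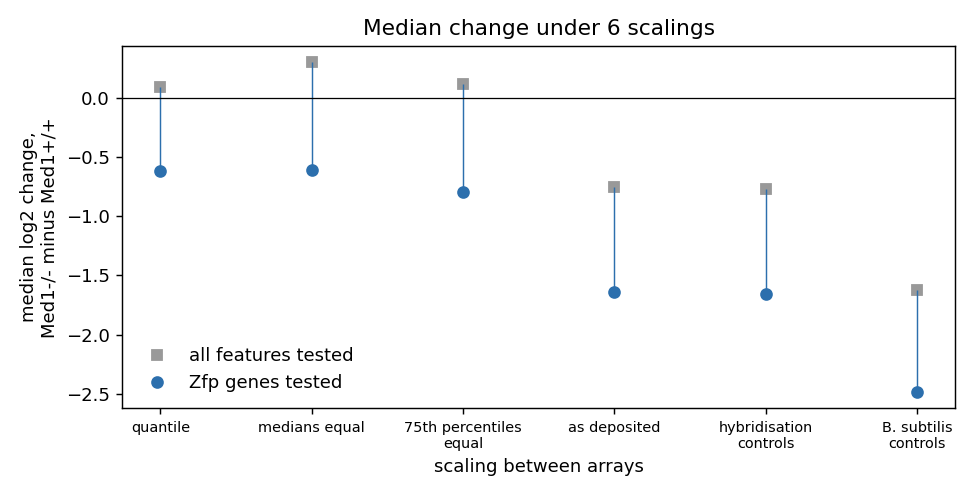
Median log2 change, Med1-/- minus Med1+/+ (y axis), of the 111 Zfp genes (circles) and of all 8923 features (squares) under 6 scalings between arrays (x axis). The median of all features moves from 0.30 to -1.62 with the scaling, and the Zfp median, which 1 factor per array moves nearly alike, lies between 0.71 and 0.91 below it.

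The 12 deepest falls reached from -2.66 to -1.87, and few of these genes have a well-described function. Zfp931 read 231 and 441 in Med1+/+ and 33.9 and 70.6 in Med1-/-, a log2 change of -2.66 (SE 0.40). Its probe set is of the _x_at type, which can also detect related transcripts, so the value cannot be assigned to Zfp931 alone. Zfp62 read 89.9 and 158 in Med1+/+ and 20.5 and 22.0 in Med1-/-, a change of -2.40 (SE 0.32). Zfp322a, needed in embryonic stem cells for the pluripotent state, read 231 and 239.8 in Med1+/+ and 52.9 and 37.4 in Med1-/-, a change of -2.36 (SE 0.21). In each of these genes both Med1-/- arrays lay below both Med1+/+ arrays, beside 88.2% of all features without overlap. Zfp958 read 76.7 and 77.4 in Med1+/+ and 12.7 and 15.3 in Med1-/-, a change of -2.33 (SE 0.29). Zfp991 read 257 and 340.3 in Med1+/+ and 53.3 and 66.2 in Med1-/-, a change of -2.29 (SE 0.20). The Med1+/+ arrays of Zfp958 were nearly equal, while its Med1-/- values were under the filter's limit of 4.98 on the log2 scale. Zfp825 read 67.0 and 70.9 in Med1+/+ and 8.70 and 23.6 in Med1-/-, the widest Med1-/- pair among the 12 largest falls, with a change of -2.12 (SE 0.46) on an _x_at probe set.

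Zfp932, a KRAB zinc finger protein that binds endogenous retroviruses, read 190.3 and 199 in Med1+/+ and 37.1 and 56.5 in Med1-/-, a change of -2.05 (SE 0.23). Zfp617 read 296 and 397 in Med1+/+ and 79.6 and 87.7 in Med1-/-, a change of -2.02 (SE 0.18). Zfp160 read 232 and 319 in Med1+/+ and 67.0 and 80.2 in Med1-/-, a change of -1.87 (SE 0.20). None of these 3 genes, picked for large falls, had overlapping genotypes. Zfp131, a BTB-domain transcription factor, was the brightest of the 12 largest falls. It read 1116 and 1335 in Med1+/+ and 325 and 321 in Med1-/-, a change of -1.91 (SE 0.12). Zfp51 and Zfp52, the other two of the 12, are neighbours on chromosome 17 and are described with their cluster. In 9 of the 56 genes called lower, the Med1-/- mean was under the filter's limit.

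Zfp428 rose most. It read 85.0 and 51.9 in Med1+/+ and 405 and 489 in Med1-/-, a change of 2.71 (SE 0.24), and no scaling tried turned its direction. Zfp703 followed, a transcriptional repressor of the NET family that is amplified in human luminal breast cancers. It read 217 and 199 in Med1+/+ and 1151 and 1295 in Med1-/-, a change of 2.55 (SE 0.12). Zfp574 read 249.6 and 238 in Med1+/+ and 988 and 867 in Med1-/-, a change of 1.92 (SE 0.12). Zfp213 read 67.8 and 80.5 in Med1+/+ and 290.4 and 246 in Med1-/-, a change of 1.83 (SE 0.17). In Zfp703, Zfp574 and Zfp213 the arrays of a genotype lay close together and the genotypes far apart. Zfp574 (0.213) and Zfp213 (0.017) were not called on the Bacillus subtilis controls, nor was Zfp213 as deposited (0.877). Zfp524, with 51.3 and 46.3 in Med1+/+ and 155 and 146 in Med1-/-, changed by 1.59 (SE 0.18), which turned to -0.27 on the Bacillus subtilis controls. Zfp362, with 80.9 and 80.6 in Med1+/+ and 226 and 205 in Med1-/-, changed by 1.40 (SE 0.15), which turned to -0.44 there. In 3 of the 31 genes called higher, namely Zfp296, Zfp593 and Zfp385a, the Med1+/+ mean was under the filter's limit. Zfp296, a stem cell factor, read 28.3 and 25.6 in Med1+/+ and 65.8 and 89.7 in Med1-/-, a change of 1.46 (SE 0.27), turned to -0.37 on the Bacillus subtilis controls. Zfp688 read 39.5 and 38.8 in Med1+/+ and 95.9 and 118 in Med1-/-, a change of 1.40 (SE 0.21), turned to -0.45 on those controls.

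**Figure D3:**
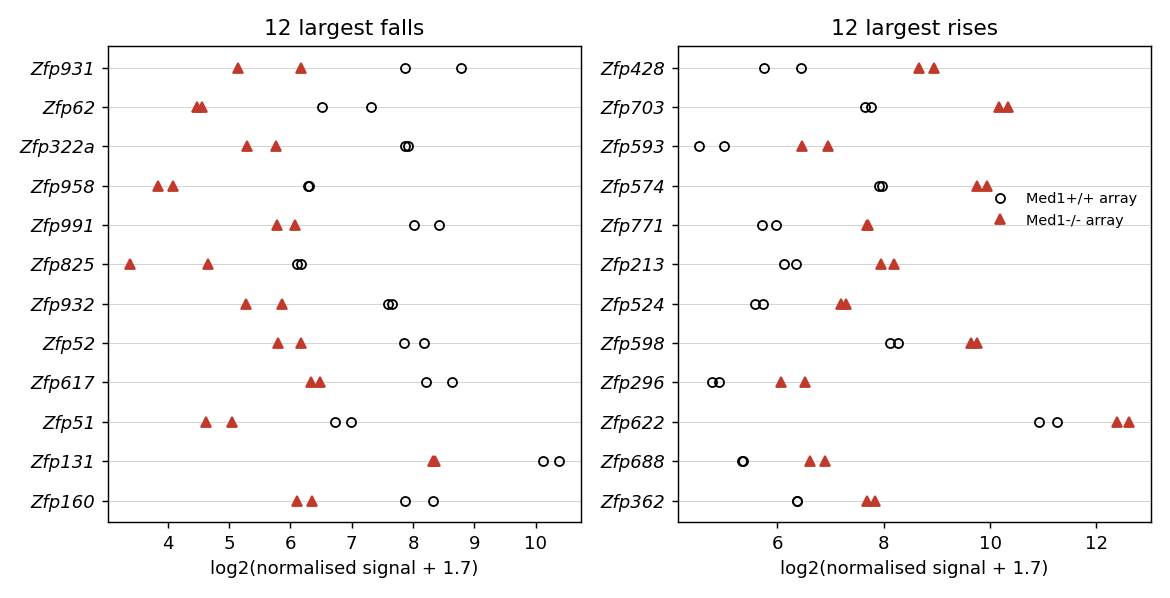
Normalised signal on each array, as log2(signal + 1.7) (x axis), for the 12 Zfp genes with the largest falls (left) and the 12 with the largest rises (right); open circles are the 2 Med1+/+ arrays and triangles the 2 Med1-/- arrays. The genotypes do not overlap for any of the 24 genes, nor for 88.2% of all features. The 24 were picked for large changes, so overlap was hardly possible. When scaled on the Bacillus subtilis controls, Zfp524, Zfp598, Zfp296, Zfp688 and Zfp362 turn negative. Zfp593, Zfp574, Zfp771, Zfp213 and Zfp622 are not called as higher there.

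Genes of RNA handling, ribosomes and the spindle went both ways. Of 13 such genes tested, 4 were higher, 7 lower and 2 not called, with a median log2 change of -0.56, beside -0.62 for all tested Zfp genes. The shares called were 53.8% lower and 30.8% higher, beside 36.2% lower and 39.1% higher over all features. The 4 higher genes were Zfp593, Zfp598, Zfp622 and Zfp385a. Zfp622, a factor of late large-subunit maturation and the brightest Zfp gene, read 2438 and 1944 in Med1+/+ and 6263 and 5341 in Med1-/-, a change of 1.41 (SE 0.14) on an _x_at probe set. Zfp598, the ubiquitin ligase that senses collided ribosomes, read 306 and 277 in Med1+/+ and 867 and 800 in Med1-/-, a change of 1.51 (SE 0.12), which turned to -0.19 on the Bacillus subtilis controls. Zfp593, a nucleolar protein whose yeast counterpart joins the large-subunit precursor, read 30.2 and 21.5 in Med1+/+ and 86.6 and 123 in Med1-/-, a change of 1.95 (SE 0.29). In the 3 genes just described the genotypes did not overlap, nor did they in 88.2% of all features. Zfp622 (0.043) and Zfp593 (0.126) were not called on the Bacillus subtilis controls. Neither Zfp593 (0.969) nor Zfp598 (0.682) was called as deposited.

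Of the 7 lower genes, Zfp638, a nuclear protein that binds DNA and RNA and takes part in splicing and in silencing unintegrated retroviral DNA, changed by -1.73 (SE 0.12), from 454 and 498 to 141 and 142. Zfp330, a nucleolar protein, read 1295 and 1254 in Med1+/+ and 402 and 391.8 in Med1-/-, a change of -1.68 (SE 0.10). Zfp871 changed by -1.34 (SE 0.11) and Zfp277 by -1.34 (SE 0.13). Zfp326, which couples elongation by RNA polymerase II to splicing, changed by -1.20 (SE 0.21). Zfp106, an RNA-binding protein needed in motor neurons, read 838 and 870.2 in Med1+/+ and 331 and 365 in Med1-/-, a change of -1.29 (SE 0.11) on its brightest probe set, while its other passing probe sets gave -0.52 and 0.21. Zfp207, the spindle and kinetochore protein also called BuGZ, changed from 653 and 670.3 to 465 and 433 on its brightest probe set. That change of -0.56 (SE 0.11) was the smallest of these falls. The other passing probe sets of Zfp207 gave -1.43, -1.34 and -1.14, so its rank depended on the probe set. The double-stranded RNA binder Zfp346 had a change of -0.09 (SE 0.15) and the splicing factor Zfp830 one of 0.05 (SE 0.13), and neither was called. A second probe set of Zfp830 gave -0.94.

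Promoter-binding and chromatin regulators held 10 lower genes of 14 tested, 1 higher and 3 not called. That is 71.4% lower, beside 50.5% of the tested Zfp genes and 36.2% of all features, and the median change was -1.03. After Zfp131, the largest falls were in Zfp644, a partner of the histone methyltransferases G9a and GLP, with 538 and 557 in Med1+/+, 209.5 and 219 in Med1-/- and a change of -1.35 (SE 0.11). Zfp24, known from myelination, changed by -1.35 (SE 0.12), from 424 and 462 to 168 and 179. Zfp518b changed by -1.30 (SE 0.11). Zfp91, a ubiquitin ligase, read 1143 and 1119 in Med1+/+ and 541 and 426 in Med1-/-, a change of -1.23 (SE 0.14) on its brightest probe set. Another passing probe set of Zfp91 gave 0.62, so its direction depended on the probe set. The other 5 lower genes changed by between -1.22 and -0.67. They were Zfp148, which binds GC-rich promoters, Zfp280c, Zfp292, the SUMO ligase Zfp451, and Zfp410, the dedicated activator of Chd4. Zfp64 was the gene that rose, by 1.01 (SE 0.17), and it turned to -0.76 on the Bacillus subtilis controls. Zfp746, Zfp532 and Zfp318 had changes of 0.42 (SE 0.23), -0.35 (SE 0.14) and -0.13 (SE 0.13) and were not called. That of Zfp746 turned to -0.61 on the deposited values and was 0.64 without Med1-/- replicate 2. Zfp532 was called lower with 75th percentiles set equal (-0.48), without an eBayes trend and with the mean over probe sets. It was also called lower with a pseudocount of 50 and with a replicate block. Zfp532 and Zfp318 were both called lower as deposited and on both sets of controls.

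Regulators of mesenchyme, fat and bone cells, went in both directions. Of 7 tested, 4 were higher, 1 lower and 2 not called, beside 36.2% lower and 39.1% higher over all features, with a median change of 0.68. Beside Zfp703, its relative Zfp503 read 418 and 599.5 in Med1+/+ and 749 and 1043 in Med1-/-, a change of 0.82 (SE 0.22), which turned to -0.85 on the Bacillus subtilis controls and was not called without Med1+/+ replicate 1 (0.56). Zfp385a, an RNA-binding protein and partner of p53 in cells that have it, changed by 1.24 (SE 0.28) and turned to -0.56 on those controls. Zfp219, a Sox9 cofactor in cartilage, changed by 0.68 (SE 0.16), but turned to -0.32 on the deposited values and was not called without Med1+/+ replicate 2 (0.58). Zfp704 fell by 1.12, while a second passing probe set of it gave 0.34. Zfp521, a brake on fat cell formation, had a change of 0.30 (SE 0.12), and Zfp467, which favours fat over bone, one of -0.39 (SE 0.31). Neither was called in the main fit. Zfp521 was called higher with array medians set equal (0.46), a 60th percentile filter, the mean over probe sets or a replicate block. The change of Zfp521 turned to -0.60 on the deposited values. Zfp467 was called lower as deposited (-1.37) and on both sets of controls. Zfp423, which commits cells to the fat lineage, was below the filter, with deposited signals of 0.7 and 1.2 in Med1+/+ and 0.1 and 11.8 in Med1-/-.

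Few genes of imprint control, pluripotency and retroelement silencing could be tested. In imprint control and pluripotency 4 of the 6 genes on the array passed the filter, and 3 were lower and 1 higher. Over all features 36.2% were lower and 39.1% higher, and 4 genes are too few to set against those shares. Zfp281, a regulator of the exit from pluripotency, changed by -1.33 (SE 0.12), from 398 and 442 to 162 and 169. Zfp445, which with Zfp57 protects imprinted methylation, changed by -0.59 (SE 0.19), a call that was lost without Med1+/+ replicate 1 (-0.48), without Med1-/- replicate 2 (-0.42), with no filter and with the mean over probe sets (-0.39). Its second passing probe set gave -0.19. The other two were Zfp322a and Zfp296. Zfp57 and the stem cell marker Zfp42 were below the filter. Of the retroelement silencers, Zfp932 was lower, and Zfp568, which represses a placental transcript of Igf2, had a change of -0.21 (SE 0.15) and was not called. The neurotrophin receptor partner Zfp110 changed by -0.79 (SE 0.17) on an _x_at probe set, and was not called on its one probe set of the plain type (-0.93); its relative Zfp369 was below the filter.

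Zfp275 was among the 8 brightest Zfp genes and is the one of them that was not called. It read 792 and 679 in Med1+/+ and 758 and 670 in Med1-/-, a change of -0.04 (SE 0.13), and its arrays overlapped. The sign of its change turned with array medians set equal, where it was 0.21.

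Of the 43 listed names of genes that work with KRAB zinc finger proteins in silencing, 32 were on the array and 30 were tested. Of these 11 were higher (36.7%), 12 lower (40%) and 7 not called, shares near the 39.1% and 36.2% of all features, with a median change of -0.09. Without Med1+/+ replicate 2, and again without Med1-/- replicate 1, 7 were higher. Trim28, the corepressor that KRAB domains bind, was higher, with 701 and 644 in Med1+/+ and 2477 and 2352 in Med1-/-, a change of 1.84 (SE 0.10). Resf1, which helps Setdb1 silence retroelements, was lower, with 587 and 597 in Med1+/+ and 162 and 156 in Med1-/-, a change of -1.89 (SE 0.11). The genotypes stood far apart in both genes, in opposite directions. Wiz, a partner of G9a and GLP, changed by 1.33 (SE 0.26), the histone chaperone Daxx by 1.09 (SE 0.11), and Atf7ip, a Setdb1 partner, by 0.98 (SE 0.13), but these 3 turned to between -0.84 and -0.51 on the Bacillus subtilis controls. Morc3 changed by -1.77 (SE 0.13), the chromatin remodeller Atrx by -1.63 (SE 0.18), and the remodeller Hells, which supports DNA methylation, by -1.39 (SE 0.11). Setdb1 itself had a change of -0.36 (SE 0.20) and was not called.

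Zfp genes that lie side by side were called in about the same shares as the others. Runs were defined from gene order in the RefSeq gene table of GRCm38.p6 as at least 3 tested Zfp genes with at most 5 other coding genes between neighbours. There were 7 runs with 29 genes, of which 15 were lower (51.7%), 7 higher (24.1%) and 7 not called, and their median change was -0.70. Among the 82 tested genes outside runs, 41 were lower (50%), 24 higher (29.3%) and 17 not called, with a median of -0.57. Whether neighbours resembled each other was not tested. The 3 runs on chromosome 17 held 11 lower genes and 1 that was not called. Over the whole of chromosome 17, 13 of 18 tested Zfp genes were lower and 2 higher. On chromosome 7, 5 of 18 were lower and 9 higher. Over all features 36.2% were lower and 39.1% higher. These chromosomes were picked as those with the most tested Zfp genes, and the shares of all genes on them were not computed. Genes of a run can be copies of one another and share probe sequence, so they do not count as independent.

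The first run on chromosome 17 held Zfp54, Zfp51, Zfp53, Zfp52 and Zfp948. Zfp52 read 229 and 289 in Med1+/+ and 54.2 and 70.3 in Med1-/-, a change of -2.03 (SE 0.20). Zfp51 read 104 and 125 in Med1+/+ and 31.4 and 23.1 in Med1-/-, a change of -2.01 (SE 0.25). Zfp948 changed by -1.52 (SE 0.23) and Zfp53 by -1.47 (SE 0.18). Zfp54 had a change of -0.46 (SE 0.53) with overlapping arrays and was not called. A second run on the same chromosome held Zfp942, with a change of -1.78 (SE 0.34), Zfp943 (-0.995, SE 0.20), Zfp944 (-0.91, SE 0.26) and Zfp758 (-1.17, SE 0.23). These form 2 head-to-head pairs. The annotated starts of Zfp942 and Zfp943 lie 95 bases apart on opposite strands, and those of Zfp944 and Zfp758 lie 63 bases apart. Zfp944 was not called without either Med1+/+ array (-0.91 and -0.90). In the third run Zfp955a changed by -1.04 (SE 0.12), Zfp955b by -0.84 (SE 0.15) and Zfp101 by -1.43 (SE 0.17).

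Upstream sequences are shown from each of the 3 runs: 3 neighbours of the first, 1 gene of each head-to-head pair of the second and the near-identical pair of the third, all called lower. Each is the 150 bases before the annotated start, 5′ to 3′ on the gene's strand, from RefSeq on GRCm38.p6, in lower case with every CpG in capitals. Zfp53 is at chr17:21488838-21488987 (+), Zfp52 at chr17:21535389-21535538 (+), Zfp948 at chr17:21566828-21566977 (+), Zfp943 at chr17:21962409-21962558 (+), Zfp758 at chr17:22361313-22361462 (+), Zfp955a at chr17:33255146-33255295 (-) and Zfp955b at chr17:33289394-33289543 (+).
Zfp53: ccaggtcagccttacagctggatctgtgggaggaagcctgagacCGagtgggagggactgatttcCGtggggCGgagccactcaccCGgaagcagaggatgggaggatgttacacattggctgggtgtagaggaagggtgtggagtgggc
Zfp52: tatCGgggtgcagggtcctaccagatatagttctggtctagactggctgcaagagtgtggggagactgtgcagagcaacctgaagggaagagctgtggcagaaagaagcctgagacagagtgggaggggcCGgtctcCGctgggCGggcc
Zfp948: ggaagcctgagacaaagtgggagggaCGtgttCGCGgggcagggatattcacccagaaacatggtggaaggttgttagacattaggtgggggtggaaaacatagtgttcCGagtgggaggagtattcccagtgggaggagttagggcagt
Zfp943: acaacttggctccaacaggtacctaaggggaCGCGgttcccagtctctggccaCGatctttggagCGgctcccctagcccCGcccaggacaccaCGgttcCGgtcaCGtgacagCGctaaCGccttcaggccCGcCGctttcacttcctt
Zfp758: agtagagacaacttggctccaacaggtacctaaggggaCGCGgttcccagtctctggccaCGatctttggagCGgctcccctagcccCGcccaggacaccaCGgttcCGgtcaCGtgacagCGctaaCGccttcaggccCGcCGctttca
Zfp955a: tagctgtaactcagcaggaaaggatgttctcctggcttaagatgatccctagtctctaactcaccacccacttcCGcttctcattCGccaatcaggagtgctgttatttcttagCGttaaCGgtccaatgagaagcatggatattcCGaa
Zfp955b: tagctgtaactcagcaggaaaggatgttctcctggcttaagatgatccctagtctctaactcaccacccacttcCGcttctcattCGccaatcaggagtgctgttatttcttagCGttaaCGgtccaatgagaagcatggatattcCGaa
These windows hold 4 CpG each in the genes of the first run, 12 each in Zfp943 and Zfp758 and 5 each in the pair of the third run. The Zfp943 and Zfp758 windows hold the same letters shifted by a few bases, so they do not count as separate observations. Over 250 bases all 4 genes of the second run had 17 CpG, the median of all lower and of all higher genes. Over the 250 bases before the start, Zfp955a and Zfp955b were the same at 250 of 250 positions. Those bases lie outside the transcript, and transcript and probe sequences were not compared. Whether the array tells the pair apart is not known, so their values are uncertain as separate measurements.

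A pair of other runs leaned upward. On chromosome 6, Zfp282 (1.04, SE 0.26), Zfp212 (0.75, SE 0.13) and Zfp777 (1.26, SE 0.21) were higher, and all 3 turned to between -1.06 and -0.59 on the Bacillus subtilis controls. Their neighbours Zfp746 and Zfp467 were not called. On chromosome 7, Zfp771 read 61.0 and 51.0 in Med1+/+ and 207 and 204 in Med1-/-, a change of 1.85 (SE 0.17) on an _x_at probe set. Zfp771 was not called on the Bacillus subtilis controls (0.009) or as deposited (0.867). Zfp768 (1.22, SE 0.24), Zfp553 (0.87, SE 0.16) and Zfp688 were higher with it. Zfp768 turned to -0.65 and Zfp553 to -0.97 on the Bacillus subtilis controls. Zfp764, in the midst of that run, was lower, with 73.7 and 71.3 in Med1+/+ and 54.0 and 40.1 in Med1-/-, a change of -0.62 (SE 0.24). The second chromosome 7 run had 1 lower gene, Zfp566 (-0.95, SE 0.28), beside Zfp790 (-0.46, SE 0.21), Zfp568 and Zfp82 (-0.96, SE 0.39), which were not called. The run of Zfp397 (-0.06, SE 0.28), Zfp35 (-0.70, SE 0.22) and Zfp24 held 2 lower genes, and Zfp397 was not called. The calls of Zfp35, Zfp566 and Zfp764 were each lost when either Med1+/+ array was left out, with changes from -1.15 to -0.60. Those of Zfp35 (-0.37) and Zfp764 (-0.41) were lost without Med1-/- replicate 2 as well, and none of the 3 was lost without Med1-/- replicate 1. With no filter Zfp566 and Zfp764 were not called. Zfp82 was called lower without Med1-/- replicate 2 (-1.40) and with 75th percentiles set equal (-1.04), and Zfp790 with the latter (-0.64).

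**Figure D4:**
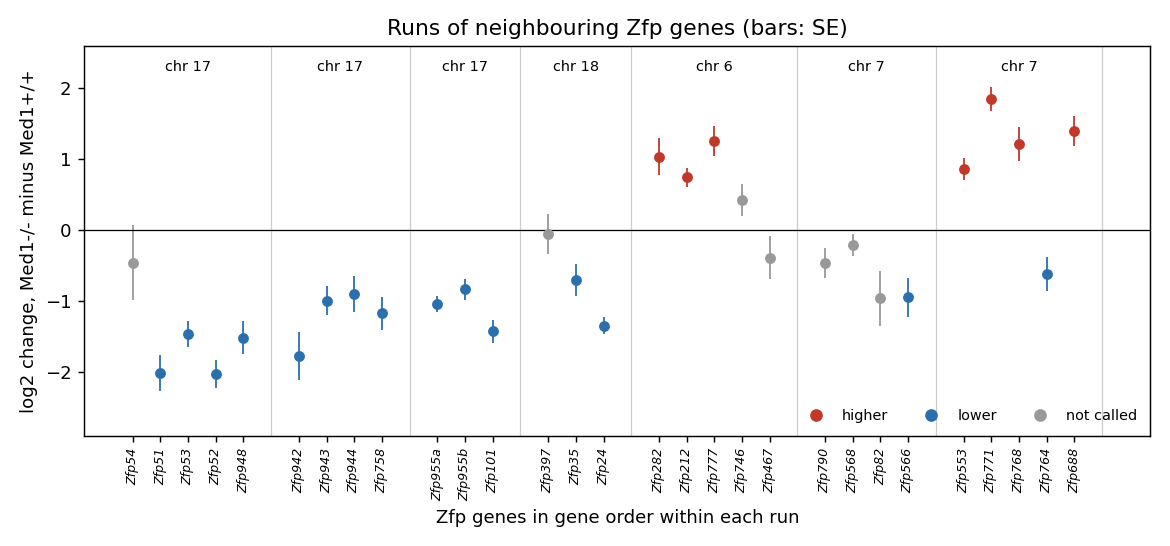
Log2 change, Med1-/- minus Med1+/+ (y axis; bars, SE from limma), of the 29 Zfp genes in 7 runs of genomic neighbours, in gene order within each run (x axis). In the 3 chromosome 17 runs 11 of 12 genes are called lower, while 4 of 5 genes are called higher in the last chromosome 7 run. Over all features 36.2% are lower and 39.1% higher. Zfp688, Zfp768, Zfp553, Zfp282, Zfp212 and Zfp777 turn negative when scaled on the Bacillus subtilis controls.

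The upstream sequences of genes in the upward runs are shown for contrast, with the lower gene Zfp764 among them, in the same form and from the same table. Zfp771 is at chr7:127244376-127244525 (+), Zfp768 at chr7:127345315-127345464 (-), Zfp764 at chr7:127406823-127406972 (-) and Zfp777 at chr6:48047795-48047944 (-).
Zfp771: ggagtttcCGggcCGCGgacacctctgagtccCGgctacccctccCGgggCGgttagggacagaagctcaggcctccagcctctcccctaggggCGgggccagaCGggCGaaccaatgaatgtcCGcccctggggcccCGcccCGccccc
Zfp768: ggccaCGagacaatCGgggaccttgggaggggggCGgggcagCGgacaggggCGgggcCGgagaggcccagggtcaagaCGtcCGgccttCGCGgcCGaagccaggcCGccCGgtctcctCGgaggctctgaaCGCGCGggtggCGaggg
Zfp764: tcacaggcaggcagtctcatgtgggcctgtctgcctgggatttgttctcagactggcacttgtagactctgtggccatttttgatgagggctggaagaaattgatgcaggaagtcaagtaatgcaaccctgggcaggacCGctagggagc
Zfp777: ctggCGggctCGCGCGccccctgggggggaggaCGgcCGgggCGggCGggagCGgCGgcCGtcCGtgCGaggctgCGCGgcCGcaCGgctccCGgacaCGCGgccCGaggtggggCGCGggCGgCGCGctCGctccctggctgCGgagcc
The windows of the 3 higher genes hold 12, 18 and 28 CpG, and that of Zfp764 holds 1. The 12 of Zfp771 equal those of the lower genes Zfp943 and Zfp758, whose windows are nearly the same sequence.

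A promoter was found in the RefSeq table for 136 of the 170 genes and for 89 of the 111 tested. In the 250 bases before the start, the 24 higher genes had a median of 16.5 CpG, the 48 lower genes 10.5 and the 17 genes not called 15. Among all genes the medians were 17 for those higher and 17 for those lower. Fewer than 10 CpG were found in 3 of the 24 higher Zfp genes (12.5%), in 22 of the 48 lower ones (45.8%) and in 4 of the 17 not called (23.5%), beside 18.5% of all higher genes and 21.6% of all lower genes. When the farthest downstream start was taken for genes with several, the Zfp medians were 15.5 and 12. The median GC content was 62.2% in higher and 53.6% in lower Zfp genes, beside 61.2% and 60.4% in all genes. Across the 89 Zfp genes the Spearman correlation of log2 change with CpG count was 0.32, and across all genes it was 0.01. These correlations are across genes of 1 pair of groups, and neighbouring duplicates share sequence. They carry no test, because the changes are those the family was proposed on.

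**Figure D5:**
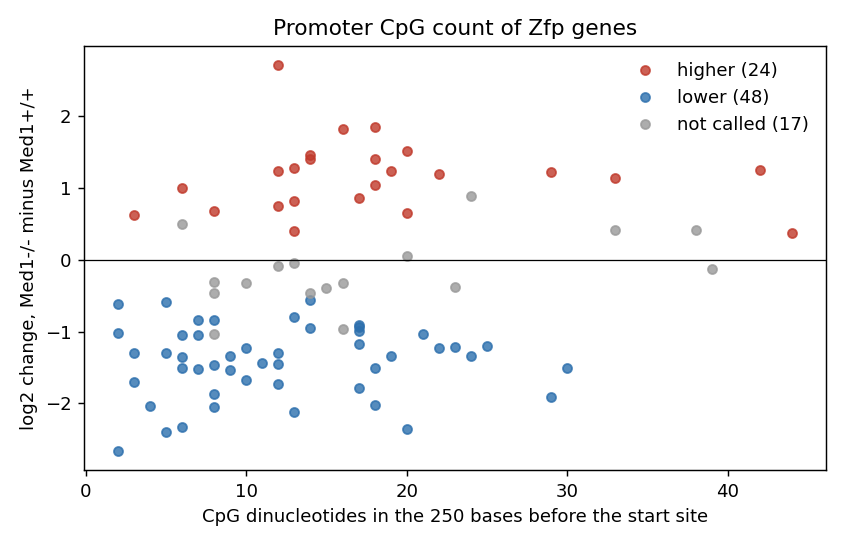
Number of CpG dinucleotides in the 250 bases before the start site (x axis) and log2 change, Med1-/- minus Med1+/+ (y axis), for the 89 tested Zfp genes with a promoter in the RefSeq table; 1 point is 1 gene. 22 of the 48 genes called lower have fewer than 10 CpG, against 3 of the 24 called higher; of all 31 called higher, 2 are still called higher with Bacillus subtilis scaling.

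Lower Zfp genes were also longer and lay among fewer genes, as lower genes did over the whole array. The median genomic length was 12.1 kb for higher and 22.5 kb for lower Zfp genes, beside 15.4 kb and 31.5 kb for all genes. The 500 kb on each side of a gene's midpoint held a median of 25 other coding genes for higher and 16 for lower Zfp genes, beside 23 and 10 for all genes. Spearman correlations of log2 change with length were -0.31 over the 111 Zfp genes and -0.27 over all genes. With gene density they were 0.31 and 0.44.

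Short sequence motifs were searched on both strands of the 250 bases before the start. The GC box core GGGCGG, read by Sp factors, was in 55.1% of the 89 Zfp promoters, beside 42.7% of all 17491 coding promoters and 63.5% of those of tested genes. It was in 16 of 24 higher and 24 of 48 lower Zfp genes. CCAAT, read by NF-Y, was in 46.1% of Zfp promoters, beside 36.5% and 36.9%. The ETS core CCGGAA was in 30.3%, beside 15.2% and 24.5%. TATAAA was in 5.62%, beside 12.4% and 5.79%. A match is a string of letters and no evidence of binding.

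The 59 Zfp genes below the filter were left without a test. Of these, 24 were lower by at least 1 on the log2 scale and 4 higher by as much. The shares of all genes below the filter with such changes were not computed, so these counts have no background. In 14 of the 59 Zfp genes the Med1+/+ mean was above the filter's limit, and in 3 the Med1-/- mean was. Zfp959 had deposited signals of 60.6 and 80.7 in Med1+/+ and 2.1 and 5.6 in Med1-/-, a change of -3.05. Zfp612 had one of -2.82. The 4 with rises of at least 1 were Zfp936 (1.80), Zfp316 (1.56), Zfp444 (1.43) and Zfp423 (1.15). No call was made for any of them.

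Agreement between probe sets was checked in the 30 Zfp genes with several that passed the filter. All probe sets had changes of one sign in 25 genes. The 5 exceptions were Zfp91, Zfp106, Zfp318, Zfp704 and Zfp830. The median range between probe sets of a gene was 0.46 on the log2 scale.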

How the data were processed

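RNA of 4 cultures or preparations was hybridised to Affymetrix arrays after biotin labelling with a 3' IVT Express kit, per the labels' protocols. The authors deposited linear signal intensities, 1 for each probe set on each array. Their probe summary, background correction and scaling are not given in the sources used here. Of all probe sets, 64 controls were left out, and the other 22626 were quantile normalised and taken as log2(value + 1.7), a log2 scale computed here from the deposited values; 1.7 is the table's 10th percentile, and fold changes of dim genes are understated. The filter at the 40th percentile of the mean removed 9050 probe sets. For each gene the probe set with the highest mean was used, and probe sets with several symbols, 16 of them with a Zfp symbol, gave no gene value.

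The genotypes were compared in limma 3.58.1 with R 4.3.3 (two-sided moderated test with a trend in eBayes, Benjamini-Hochberg over 8923 features), with 2 residual and 4.71 prior degrees of freedom. The procedure was tested on simulated data. Symbols and neighbours came from the RefSeq gene table of GRCm38.p6. Genes named by rule were the 12 largest rises and falls, the 8 brightest and all tested genes of each role list. Genes in runs and up to 4 partner genes each way were also named by rule. The planned limit of 5 changed genes per role list was not kept. Genes below the filter and the 9 with overlapping arrays were named after their values were seen. So were the 5 whose deposited values go the other way and those whose probe sets disagree. The members and lists were chosen with earlier results of these data known. Replicate numbers were not taken to pair the arrays. Alternatives varied the filter, scaling, pseudocount, probe set, variance model, block, threshold and the arrays used. Python 3.11.15 and matplotlib 3.10.9 drew the figures.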

Additional observations from a re-analysis of the deposited data

How the results depend on the processing

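With 2 arrays per genotype, dim genes have the least certain values. All 56 lower calls were kept under the 5 other scalings. The deposited and control scalings lower all features, so they could hardly undo such a call. Zfp genes called higher and lower numbered 2 and 97 on the Bacillus subtilis controls, 10 and 81 on the hybridisation controls, 4 and 72 as deposited, and 14 and 27 with a filter at the 60th percentile, which tested 48. All features called higher were 137, 1177 and 265 under those 3 scalings and 1890 at 2-fold. Those called lower were 7800 and 5341 on the controls and 1715 at 2-fold. With the 60th percentile filter, 2682 of all features were called higher and 2533 lower. Silencing partners called higher were 1 as deposited. The median Zfp change was -2.48 on the Bacillus subtilis controls, -1.66 on the hybridisation controls, -1.64 as deposited, -0.82 with the 60th percentile filter, -0.67 with no filter, -0.79 with 75th percentiles equal, -0.53 with the mean over probe sets and -0.43 with a pseudocount of 50.

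Without each array in turn, Zfp genes called higher ranged from 24 to 28 and lower from 47 to 59, silencing partners called higher from 7 to 10, and the median from -0.76 to -0.54; an arm of 1 array was assumed to vary like the other. The signs of these uncalled genes turned: Zfp275 ranged from -0.15 to 0.069 (positive without Med1+/+ replicate 1 or Med1-/- replicate 2), Zfp346 from -0.23 to 0.054 (positive without Med1+/+ replicate 1), Zfp830 from -0.008 to 0.11 (negative without Med1+/+ replicate 2 or Med1-/- replicate 1), and Zfp54 from -0.78 to 0.29 and Zfp397 from -0.26 to 0.14 (both positive without Med1-/- replicate 2). Zfp275 also turned with medians equal (0.21) and 75th percentiles equal (0.021), and Zfp830 with the latter (-0.009) and the mean over probe sets (-0.47).

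On the Bacillus subtilis controls these changes turned negative: Zfp212 -1.06, Zfp219 -1.18, Zfp282 -0.84, Zfp296 -0.37, Zfp362 -0.44, Zfp385a -0.56, Zfp503 -0.85, Zfp521 -1.47, Zfp524 -0.27, Zfp553 -0.97, Zfp598 -0.19, Zfp64 -0.76, Zfp688 -0.45, Zfp746 -1.46, Zfp768 -0.65, Zfp777 -0.59, Zfp830 -1.75, Wiz -0.51, Daxx -0.61 and Atf7ip -0.84. As deposited, and on the hybridisation controls, so did Zfp212 (-0.20, -0.21), Zfp219 (-0.32, -0.34), Zfp521 (-0.60, -0.62), Zfp553 (-0.11, -0.12), Zfp746 (-0.61, -0.62) and Zfp830 (-0.88, -0.90). The cause was not tested.

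With a replicate block, 33 Zfp genes were higher and 58 lower, beside 3825 and 3500 of all features. Of these Zfp genes, 31 and 55 were shared with the fit without the block. Zfp521 (0.30), Zfp532 (-0.35) and Zfp82 (-0.96) were called with the block and not without it. Deviations of same-numbered arrays correlated at 0.27, from only 2 numbers, so the numbers are not taken as a pairing. A comparison of KRAB with other zinc finger genes was not run, because no protein table was used here. Symbols of the platform annotation gave the same 170 genes.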

Other observations

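Other zinc finger families were measured on the same arrays, where 39.1% of all features were higher and 36.2% lower in Med1-/- cells. Of 17 tested Zbtb genes, which pair zinc fingers with a BTB domain, 12 were higher, 3 lower and 2 not called (70.6% and 17.6% higher and lower), with a median log2 change of 0.88. Of 9 tested Zkscan and Zscan genes, which carry a SCAN domain, 1 was higher, 4 lower and 4 not called (11.1% and 44.4%), with a median of -0.79. Of 10 tested Klf genes, 3 were higher and 5 lower (30% and 50%), with a median of -0.37. The difference between these families and the Zfp genes was not tested.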
